A study of Mus musculus with 12 samples.

Results

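Lung tumors of cyclin E-transgenic mice were compared with the lungs of mice that never carried the transgene. The comparison takes 4 tumor arrays and 4 non-transgenic lung arrays, chosen by their sample titles, from a series of 12 arrays. The tumors were adenocarcinomas from FVB mice in which the human surfactant protein C (SP-C) promoter drives wild-type human cyclin E. The non-transgenic lungs came from FVB mice with no transgene. The other 4 arrays, of histologically normal lung next to tumors in transgenic mice (adjacent lung), entered the statistical fit and are given only where they show how the tumors differ. All mice were labelled male and were 7 to 11 months old, and every tissue was picked by gross pathology, kept in RNAlater and extracted with Trizol. Tumor and non-transgenic tissue came from different mice, so no array of one group is paired with an array of the other. The tumors differ from these lungs in the transgene as well as in being tumor, and the effects of the pair cannot be told apart here. The 4 adjacent lungs share the transgene with the tumors but not the malignant growth.

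Cyclin E binds cyclin-dependent kinase 2 and drives cells from the G1 phase into DNA synthesis, and its amount is normally held down by proteasomal degradation. The SP-C promoter is active in alveolar type II cells, which make surfactant and renew the alveolar lining, so the transgene is aimed at that epithelium and not at the vessels, stroma or immune cells of the lung. Normal lung is mostly a thin alveolar wall of epithelium and capillary, whereas an adenocarcinoma is a solid or glandular mass of epithelium. The arrays read whole tissue, in which fewer cells of a type and less RNA per cell cannot be told apart.

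Each array (an Affymetrix GeneChip for the mouse genome) reads a transcript with a probe set, a group of short probes whose signals are merged into a single log2 signal. On this scale a difference of 1 is a 2-fold change. Of 45037 probe sets other than array controls, 23538 (52.3%) were tested, because at least 4 arrays exceeded the table-wide median (a log2 signal of 4.18). Signals below that median are not shown to be above background. No source used here gives the gene of a probe set, so probe sets are counted and named by their identifiers, cell type markers could not be set against the tissue labels, and transcripts are named only for array controls that carry the name in their identifier. The array medians were 4.18 to 4.19 in non-transgenic lungs and 4.10 to 4.13 in tumors. Tumor 2 and adjacent lung 3 stood apart from the rest of their groups, as the values per array show. The number of arrays limits the precision of every value.

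In the tumors, 7652 of the 23538 probe sets (32.5%) passed limma's test against non-transgenic lung at an adjusted p under 0.05. Of these, 3678 (15.6% of those tested) rose and 3974 (16.9%) fell. The same fit called 6765 probe sets (28.7%) between tumors and adjacent lungs, with no block. Tissue codes in the labels hint that a tumor and an adjacent lung of 1 replicate number may share a mouse, whereas the methods describe independent samples. With the mouse as a random block the fit called 7182 against adjacent lungs and 7649 against non-transgenic lungs. Between adjacent and non-transgenic lung limma called 0, with 835 at an unadjusted p under 0.05. That is fewer than chance alone would mark among 23538 at this threshold, so the 835 show no difference by themselves. The fit shares its spread with the more variable tumors, so 0 calls do not show that the lungs were alike. The order of the counts that rose and fell turned under other scalings and without tumor 2: without that tumor, 5697 rose and 5279 fell.

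Large changes were mostly decreases. At least 2-fold changes were called in 1065 probe sets that rose and 2446 that fell, and every alternative run kept the decreases in the majority. At 4-fold the counts were 176 and 969, at 8-fold 45 and 364, and at 16-fold 12 and 100. Changes of at least 32-fold were found in 6 probe sets that rose and 23 that fell, and those of at least 64-fold in 2 and 6. Without tumor 2, 1706 probe sets rose and 3079 fell by 2-fold or more. The filter is easier to pass for a signal seen only in lung. Such a probe set needs any 4 lungs of either kind, whereas one seen only in tumors needs all 4 tumors. With no filter, 1295 probe sets rose and 2494 fell by 2-fold or more. The median difference over all tested probe sets was 0.07 on the log2 scale, so the bulk of the distribution was centred slightly above 0 while its longer tail lay below. The smallest difference that passed the test was 0.29, and the median standard error was 0.20.

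**Figure D1:**
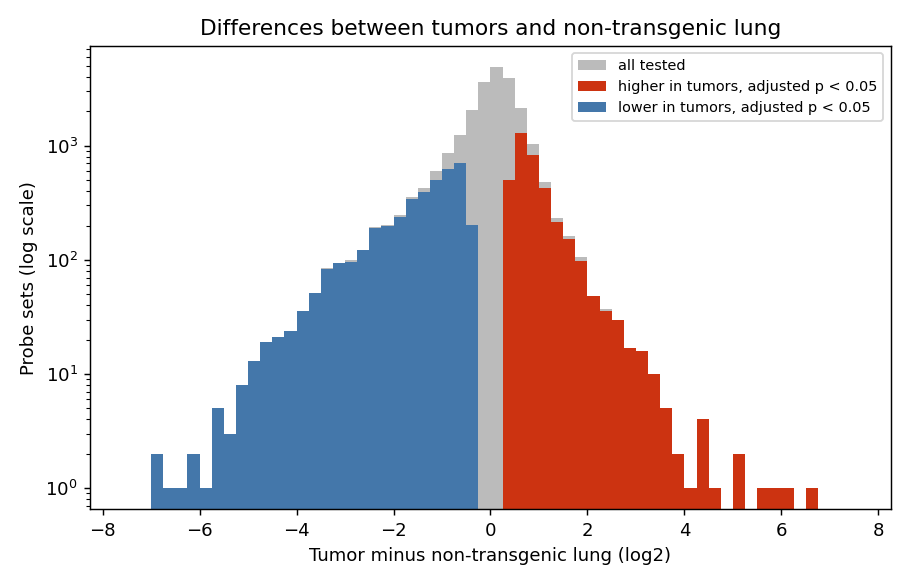
Number of probe sets (vertical axis, log scale) by the log2 difference between the mean of 4 tumors and the mean of 4 non-transgenic lungs (horizontal axis). Grey bars are all 23538 tested probe sets, red bars the 3678 that rose and blue bars the 3974 that fell at limma's adjusted p under 0.05. The blue side reaches further down in larger numbers, with 969 probe sets at least 4-fold lower against 176 at least 4-fold higher.

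The excess of decreases among the 2-fold changes was present at every level of brightness. In the dimmest quartile of the tested probe sets, with means over the 12 arrays from 3.49 to 5.20, 295 rose and 638 fell by at least 2-fold. In the brightest quartile, with means from 7.58 to 14.19, the counts were 187 and 544. The share of probe sets called was 32.7%, 34.8%, 32.2% and 30.3% from the dimmest to the brightest quartile, near the 32.5% over all. By the array's own naming, X_AT probe sets hold probes that may also match other transcripts. Of 1448 tested, 320 rose and 178 fell, so 64.3% of their calls were increases. That share was 45.8% in plain AT probe sets (2568 higher and 3034 lower of 17156), 49.7% in A_AT and 53.4% in S_AT. Their share called was 34.4% against 32.7% for the plain class.

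Some changed probe sets were dim on their weaker side, and few of those were bright on the other. Among the probe sets called lower, 1073 (27.0%) had a tumor mean under 4.18, while 366 of the 3678 called higher had a non-transgenic mean under it. The fold of such a probe set is only as good as its dim side. With the bright side above the 75th percentile of the table (6.47), 160 probe sets went from above 6.47 in non-transgenic lung to under 4.18 in tumors, and 28 went the other way. Only 10 of the 160 did so in each of the 8 arrays, as did 1 of the 28. The filter favours the first kind, since a probe set dim in every lung was tested only if all 4 tumors exceeded 4.18. Its part in the gap between these counts was not tested.

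The arrays of the groups did not overlap in 6716 probe sets (28.5% of those tested). In 3130 all 4 tumors lay above all 4 non-transgenic lungs, and in 3586 they lay below. Of the 7652 probe sets called, 5529 (72.3%) were separated in this way and 2123 passed limma's test with overlapping arrays. The tumors were the more variable side. The median standard deviation (SD) of a probe set was 0.31 among the tumors and 0.19 among the non-transgenic lungs, and the tumor SD was the larger in 17457 probe sets (74.2%). Without tumor 2 the median SD among tumors was 0.20.

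Counted array by array, tumors 1, 3 and 4 departed from non-transgenic lung to a similar extent and tumor 2 much less. Tumor 1 had 1095 probe sets at least 2-fold above the highest non-transgenic lung and 2380 at least 2-fold below the lowest. Tumor 3 had 1209 above and 2554 below, and tumor 4 had 1337 and 2602. Tumor 2 had 607 and 887. The transgenic lungs next to tumors stayed near the non-transgenic range with 1 exception. Adjacent lungs 1, 2 and 4 had 5, 62 and 26 probe sets above it and 42, 58 and 53 below. Adjacent lung 3 had 36 above and 1241 below, more below than tumor 2.

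**Figure D2:**
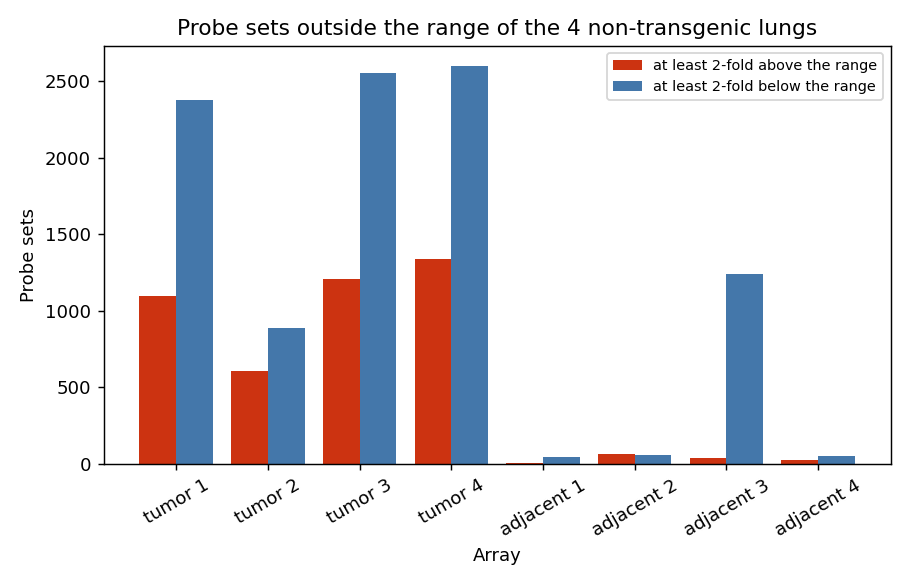
Number of probe sets (vertical axis, from 0) at least 2-fold above the highest (red) or below the lowest (blue) of the 4 non-transgenic lungs, for each tumor and each adjacent lung (horizontal axis). Tumor 2 has 607 and 887, the fewest of the 4 tumors, and adjacent lung 3 has 1241 below the range where the other adjacent lungs have 42 to 58.

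Few increases were shared by all 4 tumors. Of the probe sets at least 2-fold above the non-transgenic range in some tumor, 1263 were so in 1 tumor, 427 in 2, 649 in 3 and 46 in all 4. Of those at least 2-fold below it, 920 were so in 1 tumor, 662 in 2, 1281 in 3 and 584 in all 4. Where 3 of 4 tumors qualified, tumor 2 was nearly always the one that did not, in 633 of 649 probe sets above the range and 1207 of 1281 below it. Tumor 2 also carried increases of its own. It was the only tumor above the range in 515 probe sets, against 194, 213 and 341 for tumors 1, 3 and 4. Set against the other 7 arrays of the comparison, tumor 2 stood at least 2-fold above all of them in 420 probe sets, where tumors 1, 3 and 4 did so in 23, 27 and 86 and the non-transgenic lungs in 3 to 54. It stood below all 7 in 77 probe sets, near the 53, 25 and 58 of the other tumors.

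The same array set the size of the strongest changes. For the 176 probe sets at least 4-fold higher, the median difference from the non-transgenic mean was 2.98, 3.24 and 3.28 in tumors 1, 3 and 4 and 0.67 in tumor 2 on the log2 scale. Tumor 2 lay above the non-transgenic range in 107 of the 176 and was the tumor nearest the lungs in 165. For the 969 probe sets at least 4-fold lower, the medians were -3.19, -3.21 and -3.20 in tumors 1, 3 and 4 and -1.36 in tumor 2. Here tumor 2 lay below the range in 880 and was nearest the lungs in 912. The mean over 4 tumors is therefore smaller in size than the level of the other 3.

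The adjacent lungs, which share the transgene, were close to non-transgenic lung in both of these sets, although the sets were chosen from their difference between tumor and non-transgenic lung. The median of the 176 was 2.51 for tumor minus non-transgenic lung, 2.29 for tumor minus adjacent lung and 0.29 for adjacent minus non-transgenic lung. In single adjacent lungs it was -0.07, 0.29, 0.40 and 0.62 against the non-transgenic mean. For the 969 the medians were -2.70, -2.54 and -0.11, and the single adjacent lungs were at 0.11, -0.18, -0.14 and -0.12. These comparisons share arrays, and the differences between them were not tested.

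The largest increase was that of 1448595_A_AT. Its log2 signal was 3.21, 4.21, 3.73 and 3.91 in the 4 non-transgenic lungs, 3.71, 4.70, 3.81 and 5.97 in the adjacent lungs, and 10.45, 9.98, 10.68 and 10.42 in the tumors. The 4 tumors were close together and far above every lung, tumor 2 included. The difference was 6.61 with a standard error (SE) of 0.42 (n = 4 per group, limma adjusted p = 5.2e-06). Because 3 of the 4 non-transgenic values lie below 4.18, the lung level is not shown to be above background.

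The next largest increase, 1449939_S_AT, was far less uniform. Its log2 signal was 3.60, 3.16, 3.53 and 2.94 in non-transgenic lungs and 12.26, 7.90, 13.08 and 4.70 in tumors. Tumors 1 and 3 were very bright and tumor 4 was only just above the lungs, so the groups did not overlap but the tumor SD was 3.92. Adjacent lungs read 3.41, 8.75, 4.66 and 8.98, so adjacent lungs 2 and 4 were above tumors 2 and 4. The difference from non-transgenic lung was 6.18 with an SE of 1.72 (n = 4 per group, limma adjusted p = 0.017). It did not pass without tumor 1 or without tumor 3 (limma adjusted p = 0.055 in both). The difference from adjacent lung, 3.03, did not pass (limma adjusted p = 0.2).

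The largest decrease was that of 1419905_S_AT. Its log2 signal was 11.02, 11.57, 11.24 and 11.41 in non-transgenic lungs, 11.52, 11.63, 11.24 and 11.33 in adjacent lungs, and 3.09, 7.21, 3.78 and 3.56 in tumors. The lungs of both kinds were bright, tumors 1, 3 and 4 were under 4.18, and tumor 2 was in between. The difference was -6.90 with an SE of 0.68 (n = 4 per group, limma adjusted p = 5.7e-05), and without tumor 2 it was -7.84.

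In 1425218_A_AT, which fell nearly as far, the non-transgenic lungs were at 12.57, 12.61, 12.66 and 12.63 and the adjacent lungs at 12.15, 12.42, 12.52 and 12.39. The tumors were at 3.31, 10.14, 5.72 and 3.97. All 4 tumors were below all 8 lungs, with tumor 2 well above the other tumors. The difference was -6.83 with an SE of 1.09 (n = 4 per group, limma adjusted p = 0.00091). It was -8.28 without tumor 2, larger than that of 1419905_S_AT.

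**Figure D3:**
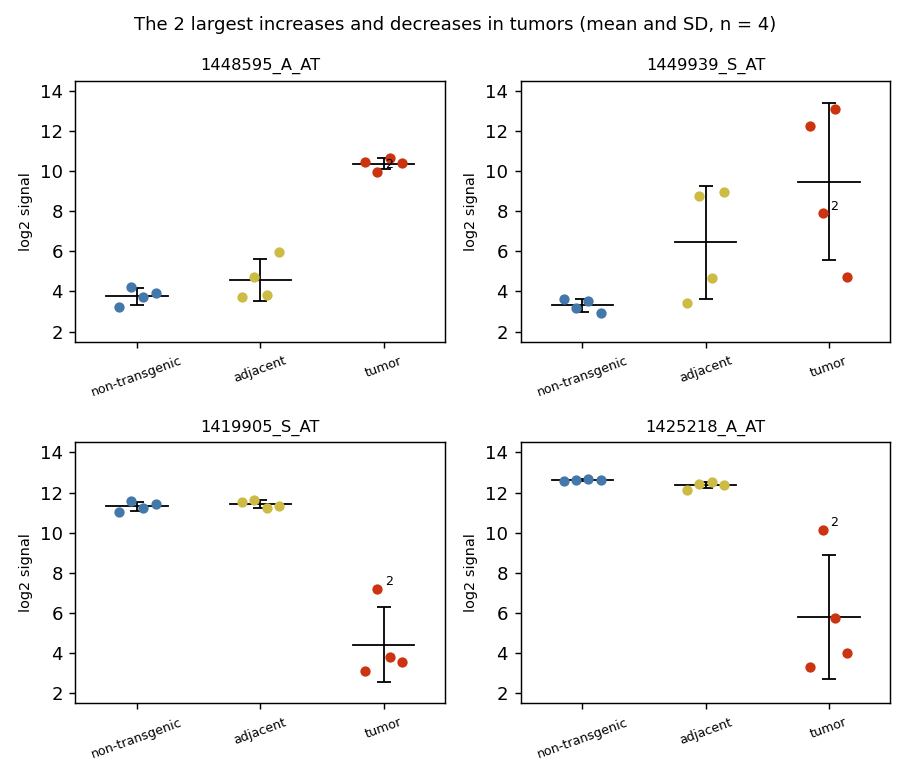
Log2 signal (vertical axis) of 4 probe sets, the 2 with the largest increase (upper panels) and the 2 with the largest decrease (lower panels), by tissue (horizontal axis). Each point is an array, horizontal lines are means, error bars are SDs (n = 4), and the tumor marked 2 is tumor 2. In 1448595_A_AT the 4 tumors lie between 9.98 and 10.68, in 1449939_S_AT they spread from 4.70 to 13.08, and in both decreases tumor 2 lies above the other tumors.

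The 12 largest increases and 12 largest decreases, which include the 4 probe sets above, repeat these patterns. They were taken from the probe sets called, with groups that did not overlap and a brighter group above 6.47, so their separation follows from the choice. Some ran in parallel over the arrays. Tumors 1 to 4 read 9.80, 7.43, 12.31 and 11.66 in increase 6 and 10.07, 7.72, 12.39 and 11.91 in increase 9. Increases 8 and 10 had a similar profile, and decreases 5 and 6 were alike in tumors. Whether such probe sets read the same transcript could not be checked, so the counts below are not of independent transcripts. The increases ran from 3.77 to 6.61 and the decreases from -5.51 to -6.90 on the log2 scale. The largest limma adjusted p was 0.017 among the increases and 0.0055 among the decreases. Tumor 2 was the tumor nearest the non-transgenic mean in 11 of the 12 increases and in all 12 decreases. The adjacent lungs were set beside both lists. For the increases, the adjacent mean lay 0.78 to 3.14 above the non-transgenic mean, and the tumors were above all adjacent lungs in 4 of 12. For the decreases the adjacent mean minus the non-transgenic mean ran from -1.34 to 0.13, and the tumors were below all adjacent lungs in 10 of 12. Against adjacent lung limma called 9 of the 12 increases and all 12 decreases. Adjacent against non-transgenic lung did not pass limma's test in any of the 24 (adjusted p = 1 in each). That test used a spread shared by the 3 groups. Among the increases the tumor SD reached 3.92, against 0.88 in non-transgenic lungs. In several of the increases, but not all, the 4 adjacent lungs lay above the 4 non-transgenic lungs. In increase 3 they were at 5.05 to 6.41, against 2.66 to 4.58.

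**Figure D4:**
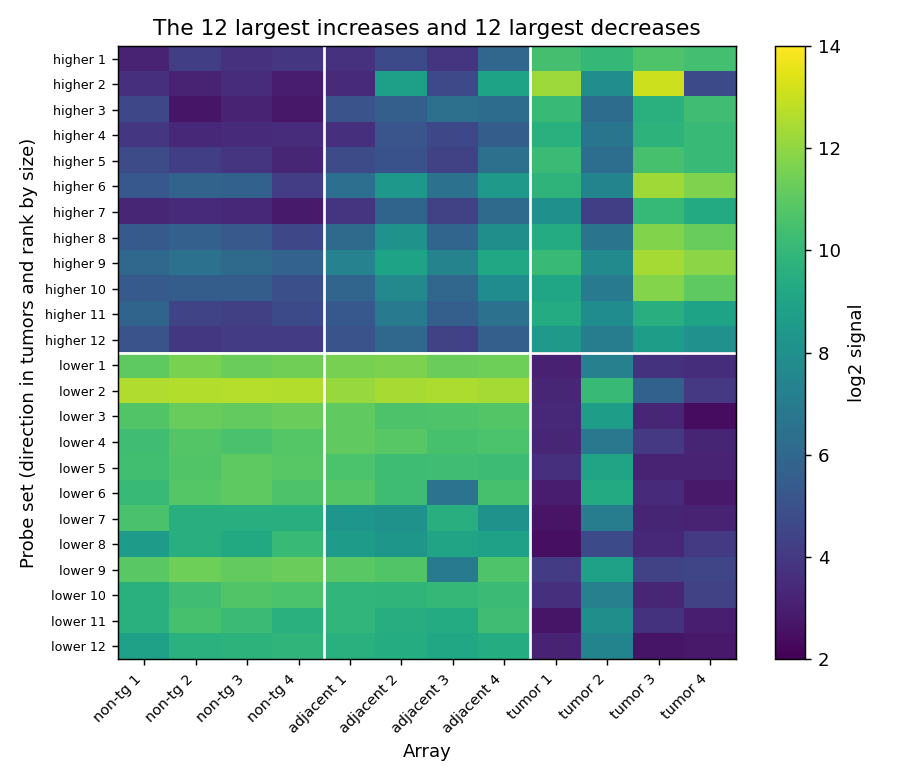
Log2 signal (colour scale) of the 12 largest increases (upper rows) and 12 largest decreases (lower rows), ranked by size, in each of the 12 arrays (columns, with white lines between the groups). Tumor 2 is the tumor nearest the lungs in 11 of the increases and all 12 decreases, though barely so in the largest increase (9.98), several increases are also brighter in adjacent lungs 2 and 4 than in non-transgenic lungs, and adjacent lung 3 is dim in decreases 6 and 9.

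Array controls for housekeeping transcripts could be named, and they did not behave alike. Each transcript has probe sets at its 3′ end, in the middle (M) and at its 5′ end. Of 19 tissue controls, 15 passed the filter, and a permutation test (exact, two-sided, all 70 ways to part 8 arrays) compared their group means. For 10 of them it reached the smallest p that 4 arrays against 4 allow (exact p = 0.029, Benjamini-Hochberg adjusted p = 0.043). They were 3 probe sets each of Gapdh, beta-actin and 18S rRNA and the 3′ probe set of pyruvate carboxylase. Probe sets of 1 transcript read the same RNA on the same arrays, so the 10 are not independent results. The adjusted value also depends on how many probe sets reach the smallest p together. Without any 1 tumor the adjusted exact p of the 10 stayed at 0.043. Without any 1 non-transgenic lung that of the 10 was 0.061 to 0.13, although 4 arrays against 3 allow the same smallest exact p (0.029). The differences stayed near their size, for example 1.11 to 1.28 for the 3′ probe set of Gapdh and -1.92 to -2.13 for that of 18S rRNA, and the directions held in every alternative run.

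Gapdh, the glycolytic enzyme that oxidizes glyceraldehyde 3-phosphate and a common reference for expression, was higher in tumors at all 3 positions. At the 3′ end its log2 signal was 11.39, 10.90, 10.92 and 11.03 in non-transgenic lungs, 10.90, 11.16, 10.87 and 11.27 in adjacent lungs, and 12.37, 11.78, 12.48 and 12.28 in tumors. Every tumor was above every lung of both kinds, and tumor 2 was the lowest tumor. The difference was 1.17, a 2.25-fold change. The middle and 5′ probe sets differed by 1.29 and 1.19, or 2.44-fold and 2.28-fold. The gene has many near-identical pseudogene copies in the mouse genome, whose transcripts the probes may also read. Gapdh lies on chromosome 6 (GRCm38.p6, chr6:125161852-125166467). The RefSeq promoter window of the gene (300 bases) is shown because Gapdh is the 1 named transcript that rose along its whole length. It is chr6:125165724-125166023 on the minus strand and spans an annotated start, with capitals for a match to ACGTG, the core of hypoxia response elements, read on the opposite strand:

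Gapdh promoter: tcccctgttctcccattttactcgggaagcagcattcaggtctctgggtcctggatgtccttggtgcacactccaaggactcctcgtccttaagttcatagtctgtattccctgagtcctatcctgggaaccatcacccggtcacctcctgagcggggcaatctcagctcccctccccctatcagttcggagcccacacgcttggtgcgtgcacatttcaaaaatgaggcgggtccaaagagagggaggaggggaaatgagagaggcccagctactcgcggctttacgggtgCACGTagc

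Both strands were searched. The window held 1 match to ACGTG, which 19.7% of 32544 RefSeq promoter windows of the same length hold, and no match to TATAAA (13.6% of windows) or CCAAT (37.4%). Another motif, the CArG box (1.6% of windows), was searched and not found. The search of this promoter was not planned, and any link of the match to the rise of Gapdh was not tested. A match of letters is a description and not a binding site.

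Beta-actin, a subunit of the actin cytoskeleton and another usual reference, was lower in tumors by a small amount. Its 3′ log2 signal was 13.37, 13.41, 13.49 and 13.43 in non-transgenic lungs and 13.20, 13.25, 13.23 and 13.19 in tumors. The groups did not overlap, although the difference was only -0.21, since the spread within each group was smaller still. Its middle and 5′ probe sets differed by -0.37 and -0.38. On the log2 scale the 3′ probe sets of these reference transcripts therefore moved in opposite directions, by 1.17 for Gapdh and -0.21 for beta-actin.

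18S rRNA, a structural RNA of the small ribosomal subunit, gave the largest differences among the controls. It is not a messenger RNA, and how far its signal follows its amount in the tissue was not tested. Its 3′ log2 signal was 8.90, 8.93, 9.43 and 8.82 in non-transgenic lungs and 7.35, 7.76, 6.56 and 6.17 in tumors, a difference of -2.06. All tumors were below all non-transgenic lungs, tumor 2 the least so. The middle and 5′ probe sets differed by -1.46 and -3.06. The adjacent lungs ranged more widely, with 3′ signals of 10.21, 9.34, 9.17 and 7.97.

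Pyruvate carboxylase, the mitochondrial enzyme that makes oxaloacetate from pyruvate, was higher at its 3′ probe set. The log2 signals there were 6.53, 6.05, 6.45 and 6.63 in non-transgenic lungs and 7.23, 7.54, 6.81 and 6.74 in tumors. Tumors 1 and 2 were highest and tumors 3 and 4 only just above the non-transgenic lungs. Adjacent lungs read 6.67, 6.57, 7.19 and 6.75, so adjacent lung 3 was above tumors 3 and 4. The difference from non-transgenic lung was 0.67, or 1.59-fold. That from adjacent lung was 0.29 (exact permutation test, adjusted p = 0.25). The 5′ probe set (0.07, exact permutation test, adjusted p = 0.54) and a middle one (0.38, adjusted p = 0.23) did not pass, and the other middle one was too dim to test. Transferrin receptor, which takes up iron-loaded transferrin, was too dim to test at all 3 positions, with group means of 3.88 and below in non-transgenic lungs and 3.91 and below in tumors. The probe sets for B1 and B2 repeats, short interspersed elements found in many transcripts, did not pass. B1 differed by 0.43 (exact permutation test, adjusted p = 0.52), where tumors 1 to 4 read 10.26, 10.46, 11.11 and 12.20. The B2 probe sets differed by 0.18 and 0.09 (exact permutation test, adjusted p = 0.46 in both). Against adjacent lung, 0 of the 15 controls passed the exact permutation test after adjustment, while 5 of them reached its smallest p (unadjusted exact p = 0.029).

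**Figure D5:**
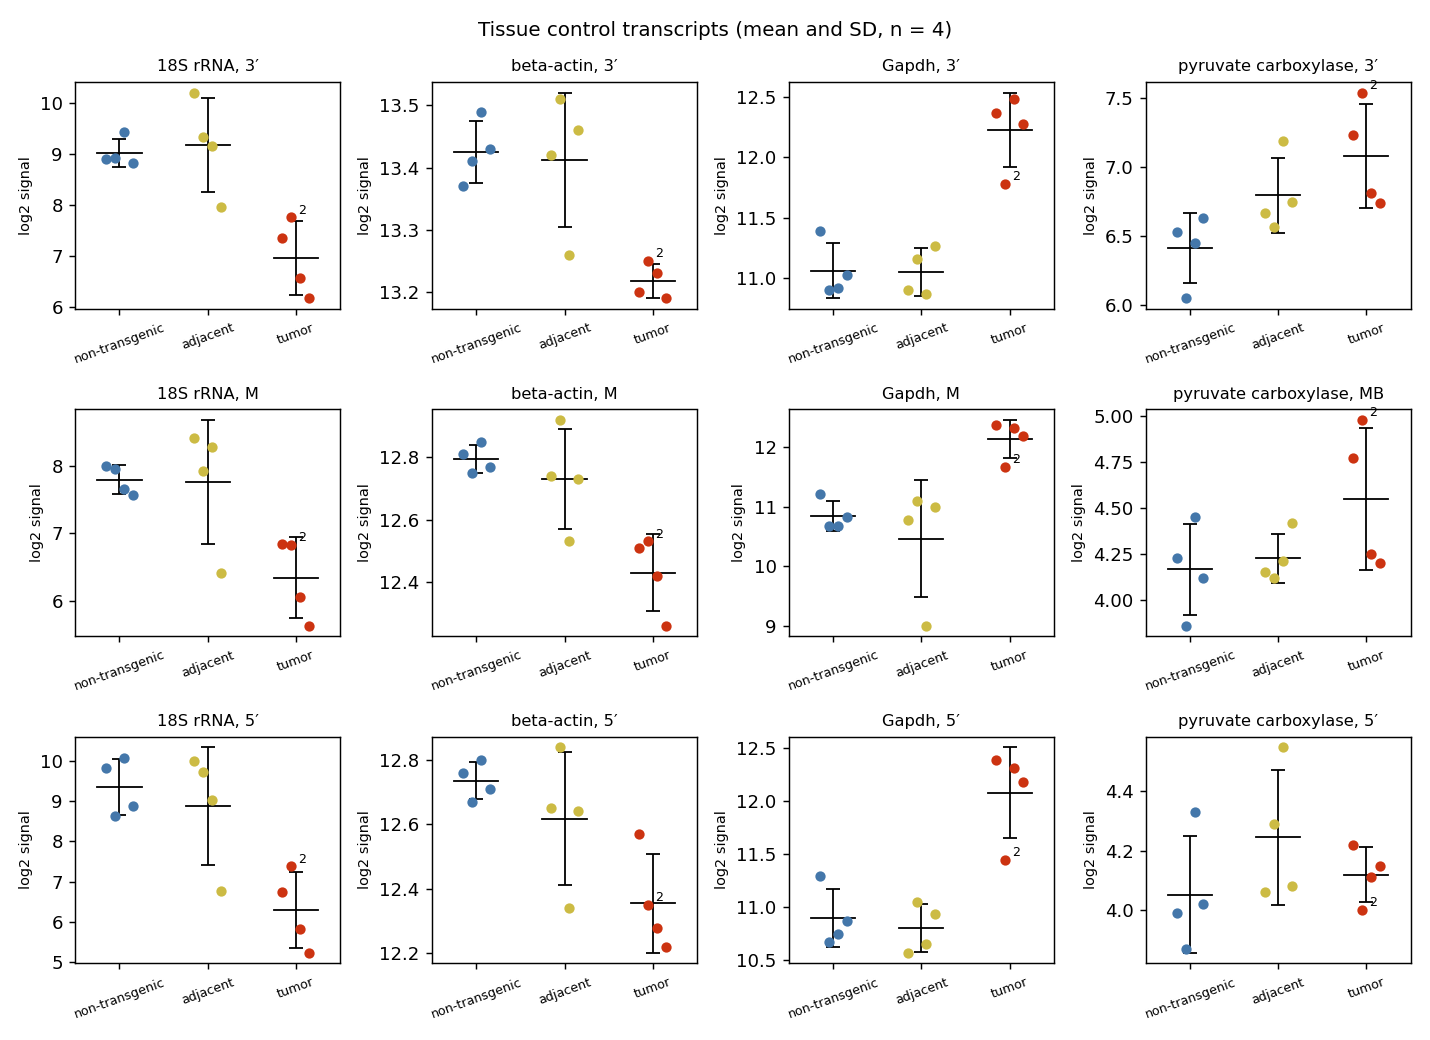
Log2 signal (vertical axis, with its own range in each panel and not from 0) of 4 control transcripts at 3 positions, by tissue (horizontal axis). Points are arrays, lines are means and error bars SDs (n = 4), and the tumor marked 2 is tumor 2. All 4 tumors lie above the non-transgenic lungs for Gapdh and below them for beta-actin and 18S rRNA, by 1.17, -0.21 and -2.06 at the 3′ end, whereas for pyruvate carboxylase only the 3′ panel is separated.

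Transcripts added before hybridization differed by 0.03 between tumors and non-transgenic lungs on average over 18 probe sets, and those added before labelling by -0.09 over 8. The gap between the 3′ and 5′ signals, which widens when messenger RNA is degraded, differed by -0.02 for Gapdh. For beta-actin it differed by 0.17, with 0.60, 0.75, 0.69 and 0.72 in non-transgenic lungs and 0.62, 0.90, 0.95 and 0.97 in tumors. Tumors 2, 3 and 4 were above all non-transgenic lungs in that gap and tumor 1 was among them. Adjacent lung 3 was at 0.92. 18S rRNA is not a messenger RNA, so its gap is given only as a value and not as a measure of degradation. The gap of 18S rRNA differed by 1.00, with -0.92, 0.30, -0.64 and -0.07 in non-transgenic lungs and 0.61, 0.38, 0.74 and 0.94 in tumors. Every tumor was above every non-transgenic lung. In adjacent lungs the gap of 18S rRNA was 0.22, -0.39, 0.14 and 1.21. The gap of pyruvate carboxylase differed by 0.60, with 2.55, 2.17, 2.12 and 2.61 in non-transgenic lungs and 3.01, 3.54, 2.70 and 2.59 in tumors, and its 5′ signal was near 4.18 in all arrays. Of the 4 transcripts, Gapdh alone had a gap that was not wider in tumors on average. The part of these gaps in the differences above, those of 18S rRNA and pyruvate carboxylase among them, was not tested.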

How the data were processed

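Total RNA from 12 tissues (4 per group) was hybridized to 12 arrays, 1 per sample, with group and replicate number from each sample's title. The deposited table holds log2 values (1.50 to 14.51) that the authors had corrected for background and normalized across arrays. The methods name Robust Multichip Average and GeneSifter, whereas GCRMA, with no version, is named in the submitters' processing notes. Which was used was not settled, and the size of a change that involves low signals can depend on that choice. The table held 45101 probe sets, 64 of them controls, and no detection calls.

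From these values, limma 3.58.1 (R 4.3.3, lmFit and eBayes) was fitted over 3 groups and 12 arrays without a block, with Benjamini-Hochberg adjustment over the 23538 probe sets tested and a threshold of 0.05. A probe set was tested above 4.18 in at least 4 arrays. The probe sets named were the largest changes, 12 in each direction, among those called, with groups that did not overlap and a brighter group above 6.47, and 2 identifiers in each direction are printed. Controls were tested with an exact permutation test. The script was tested on simulated data. No 2 arrays held the same values (highest correlation 0.9935). That mice were separate comes from the methods, which describe independent samples. The labels themselves name separate tissues and do not settle which mouse each came from.

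Alternatives were no filter, a filter at 6.47, quantile normalization, median centring, a floor at 2.81, an intensity trend with robust fit, array weights, only 8 arrays, a random block for the mouse, a replicate block, each array left out and an unequal-variance test of 2 groups. The methods give that last test for other experiments and analysis of variance for the arrays. The members and lists were chosen with earlier results of these data known. Promoter windows came from RefSeq (GRCm38.p6). Gene lists, cell type markers, sex-linked genes and Wnt genes were not analysed here, since probe sets could not be paired with genes, and probe sets were counted in place of genes.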

Additional observations from a re-analysis of the deposited data

Results flagged for a closer look

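The 4 arrays of a group were examined in 79 sets, which cover the 4 printed probe sets, the 15 tested controls, the technical measures and the counts per array but not the other 20 of the 24 largest changes. In 5 sets the lowest or highest array lay far from the other 3, and chance marks about 1 in 20, so the number itself shows nothing. Tumor 2 was the array in 2 of them. In 1419905_S_AT its log2 signal was 7.21, against 3.09, 3.78 and 3.56 in the other tumors, and it had 887 probe sets at least 2-fold below the non-transgenic range, against 2380, 2554 and 2602. Adjacent lung 3 was the array in 2 others. It had 1241 probe sets below that range, against 42, 58 and 53, and its signal at the middle Gapdh probe set was 9.01, against 10.77, 11.09 and 10.99. Adjacent lung 2 had the smallest 3′ minus 5′ gap of pyruvate carboxylase, 2.28 against 2.61, 2.64 and 2.67.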

How the results depend on the processing

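The 7652 probe sets changed between tumors and non-transgenic lung became 4246 with the filter at 6.47, which tested 12251, 11904 with array weights (7598 of them among the 7652), where tumor 2 had the lowest weight, and 1489 with an unequal-variance test after adjustment (8089 before it), which is not the test the methods give for the arrays. With only the 8 arrays compared and the replicate number as a block, added after the data were seen, there were 4592. In the 12-array fit the replicate block gave 7040, of which 6786 were shared. The numbers pair no mice: deviations of tumors and non-transgenic lungs with the same number correlated by -0.02, -0.08, 0.09 and 0.02, and 1 of 4 tumors correlated best with its own number. Leaving out 1 array gave 5318 (without tumor 3) to 10976 (without tumor 2). Without tumor 1, 3 or 4, 2397, 2140 and 2269 probe sets rose, against 3678 with all tumors. Without adjacent lung 3, 8300 changed. The random mouse block, also added later, had a correlation of 0.06 within a mouse.

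The counts that rose and fell changed order with quantile normalization (3906 and 3777), median centring of the tested probe sets (4166 and 3805) or of the whole table (4738 and 3553, added later), array weights (6251 and 5653) and without tumor 2. Of calls that rose, the share was 48.07% in the main analysis, 34.84% with the 8-array block and 32.64% with the adjusted unequal-variance test. No named probe set or control that passed changed sign. Of the values of the 4 named probe sets under alternatives, 98 kept and 6 lost the call, and the 40 lost calls of controls all left out a non-transgenic lung. In the adjusted unequal-variance test 1449939_S_AT, 1419905_S_AT and 1425218_A_AT lost the call, with adjusted values up to 0.15. Alternatives for counts of genes, gene lists, genes named by symbol and the mean of a gene's probe sets were not run, since probe sets could not be paired with genes. Signals under 4.18 limit how far a fold can be read, and 4 arrays per group limit small differences.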
